A study of Mus musculus with 15 samples.

Results

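Macrophages are specified and maintained by a small set of transcription factors, and 9 of them were followed here across macrophages sorted from mouse ear skin: Spi1, Cebpa, Cebpb, Irf8, Irf4, Maf, Zeb2, Klf4 and Bhlhe40. They were taken as the rows carrying exactly those symbols, 9 of the 42454 rows of the deposited table, and all 9 had a mean of at least 100 normalized counts and were tested. Spi1 encodes PU.1, the ETS-family factor that opens myeloid enhancers and drives Csf1r, the receptor for the macrophage growth factor. Cebpa and Cebpb encode C/EBP factors that work with PU.1, C/EBP alpha in progenitors and C/EBP beta in differentiated and inflammatory macrophages. IRF8 and IRF4 are related factors that bind DNA together with PU.1 and are used in different mononuclear lineages. IRF8 serves monocytes and cross-presenting dendritic cells, and IRF4 serves alternatively activated macrophages and migratory dendritic cells. MAF sustains the resident programme and Il10, ZEB2 maintains the identity of tissue macrophages, KLF4 acts in monocyte differentiation and alternative activation, and BHLHE40 is an E-box repressor that limits Il10 and permits macrophage proliferation.

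The 15 libraries formed 5 groups of 3, from 3 mice. All mice carried CX3CR1-creERT2/gfp R26-tdT/+ (the genotype field writes Cxcr1 for the gene) and all received tamoxifen, 3 weeks before the left ear was punched. Ear skin was taken 10 days after the punch, and no age of the mice is given. The groups were nerve-associated macrophages recruited after the punch (recsNAM), nerve-associated macrophages of the punched ear (injsNAM), interstitial macrophages of the punched ear (injIM), nerve-associated macrophages of the unpunched right ear (sNAM) and interstitial macrophages of the unpunched right ear (IM). CD11b+ CD64+ Lin- cells were sorted as GFP+/Tomato- for recruited, GFP+/Tomato+ for resident nerve-associated and GFP-/Tomato- for interstitial cells. Because creERT2 and gfp sit at the Cx3cr1 locus, with tdT at R26, the gates rest on the activity of Cx3cr1 and on its activity at the time of tamoxifen. The reporter tags of injIM (GFP+/Tomato+) and sNAM (GFP-/Tomato-) go against the titles and the gates, and the titles were used. Libraries are not tied to a mouse in the labels, so groups share animals that the tests could not pair, and nothing says whether replicates were separate preparations.

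Total depth, with M for mega, was 20.4 to 23.4 M reads in recsNAM, 16.9 to 19.5 M in injsNAM, 20.4 to 21.9 M in injIM, 5.64 to 18.6 M in sNAM and 20.6 to 23.8 M in IM. The sNAM and injsNAM libraries stood apart: they held 8581 to 12302 detected genes against 13794 to 16416 in the other 9, and their replicates correlated at 0.824 to 0.908 against 0.977 to 0.994 on the log2 scale. The macrophage markers Csf1r, Cd68, Adgre1, Fcgr1, Mertk, Itgam and Lyz2 were above 0 in every group and summed to 15034 to 16518 CPM, reads scaled to a common library total, in recsNAM, 13402 to 16892 in injsNAM, 15008 to 16718 in injIM, 10607 to 12716 in sNAM and 15354 to 16998 in IM. Over the 15 libraries, B cell markers reached at most 1.33 CPM, Schwann cell markers 6.21, endothelial markers 13.9, keratinocyte markers 157 and neutrophil markers 177 CPM, the last mainly Csf3r, and Ly6g was at 0 in every group. Values below are normalized counts, that is, reads per gene after the authors' scaling of each library, with n = 3 libraries in every group. Differences are given as log2 of (value + 100) from limma, and called means an adjusted p under 0.05 over 8656 genes.

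The promoters of Klf4, Irf4 and Irf8 are shown because Klf4 and Irf4 differed most between libraries and Irf8 is the relative of Irf4 with the steadier level. Each runs from 250 bases before to 50 bases after a start site (RefSeq, GRCm38.p6), 5′ to 3′ along the gene. Capitals mark CACGTG, the E-box letters of BHLHE40, in Klf4 and TTCCTC, the reverse strand of the PU.1 core GAGGAA, in Irf4. The Irf8 window has no capitals. They lie at chr4:55532426-55532725 on the minus strand for Klf4, chr13:30748983-30749282 on the plus strand for Irf4 and chr8:120736108-120736407 on the plus strand for Irf8.
Klf4: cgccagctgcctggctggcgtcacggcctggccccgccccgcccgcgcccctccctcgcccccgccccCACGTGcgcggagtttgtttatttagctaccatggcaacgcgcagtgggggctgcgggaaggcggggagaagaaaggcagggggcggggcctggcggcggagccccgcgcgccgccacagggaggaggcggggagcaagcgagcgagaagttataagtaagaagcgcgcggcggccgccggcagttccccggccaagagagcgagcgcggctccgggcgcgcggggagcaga
Irf4: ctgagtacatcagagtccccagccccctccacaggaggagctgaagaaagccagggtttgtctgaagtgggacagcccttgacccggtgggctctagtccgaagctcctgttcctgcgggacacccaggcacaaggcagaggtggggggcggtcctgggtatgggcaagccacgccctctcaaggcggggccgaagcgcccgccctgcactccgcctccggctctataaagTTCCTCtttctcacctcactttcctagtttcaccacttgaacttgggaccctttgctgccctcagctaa
Irf8: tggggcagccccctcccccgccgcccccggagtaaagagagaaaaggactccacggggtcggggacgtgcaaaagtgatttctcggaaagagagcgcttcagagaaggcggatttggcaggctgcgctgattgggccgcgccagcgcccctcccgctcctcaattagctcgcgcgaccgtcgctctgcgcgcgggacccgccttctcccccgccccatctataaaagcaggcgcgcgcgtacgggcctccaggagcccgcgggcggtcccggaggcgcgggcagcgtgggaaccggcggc

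RefSeq promoter entries matched 6 of the 9 genes (Cebpa, Cebpb, Irf8, Irf4, Zeb2 and Klf4), with 10 entries in all. No entry matched Spi1, Maf or Bhlhe40 in the promoter set used here. Searched on both strands among 32851 promoters of the same 300 bases, CACGTG was present in 7.15% and, of the 10 entries, in Klf4 alone, 182 bases before the start. GAGGAA was present in 28.3% of all promoters, and it was found in the Irf4 entry and in all 4 Zeb2 entries. Zeb2 entries numbered 2 and 3 overlap and hold the same site, 16 and 42 bases before their starts, so these matches are not separate. TATAAA, the TATA box letters, was present in 13.6% of all promoters, and it was found in Cebpa, Cebpb, Irf4 and the Irf8 entry shown. It began 30 bases before the start in Cebpa, 26 in Irf4 and 31 in Irf8, but 21 bases after the start in Cebpb. The GC-rich letters GGGCGGG, bound by KLF and SP factors, were present in 25.6% of all promoters; they were found 4 times in Klf4, 3 times in Cebpb and once each in Irf4, the Irf8 entry shown and 1 Zeb2 entry. The Klf4 window was 74.3% G and C against a median of 52.7% over all promoters. TTGCNNAA for C/EBP (10.8% of promoters) was found in 1 Zeb2 entry, and TGANTCA for AP-1 (7.81%) in another. These matches describe letters in a window; the files hold no measurement of binding.

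The factors covered a wide span of abundance. Per kilobase of exon and per M reads of depth, the mean level over the 15 libraries was 1794 for Cebpb and 278 for Spi1, against 64.6 for Bhlhe40, 46.0 for Klf4, 27.0 for Cebpa, 20.6 for Irf8, 15.6 for Zeb2, 11.5 for Irf4 and 4.38 for Maf. Merged exon lengths of GENCODE M21 were used, which include long alternative ends for Zeb2 and Maf, so the order below Spi1 is uncertain. On the scale of normalized counts, 99.7% of tested genes lay below Cebpb, 98.1% below Spi1 and 49.0% below Maf. Cebpb and Spi1 were also the steadiest members, with a highest over lowest library of 1.90 and 1.91, against 15.9 for Irf4, 11.6 for Klf4 and 7.13 for Maf. The remaining 4 members, Cebpa, Irf8, Zeb2 and Bhlhe40, lay between 3.47 and 3.76. Every member was read in every library, the fewest reads being 100 for Maf and 120 for Klf4, both in sNAM replicate 2, the shallowest library.

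**Figure D1:**
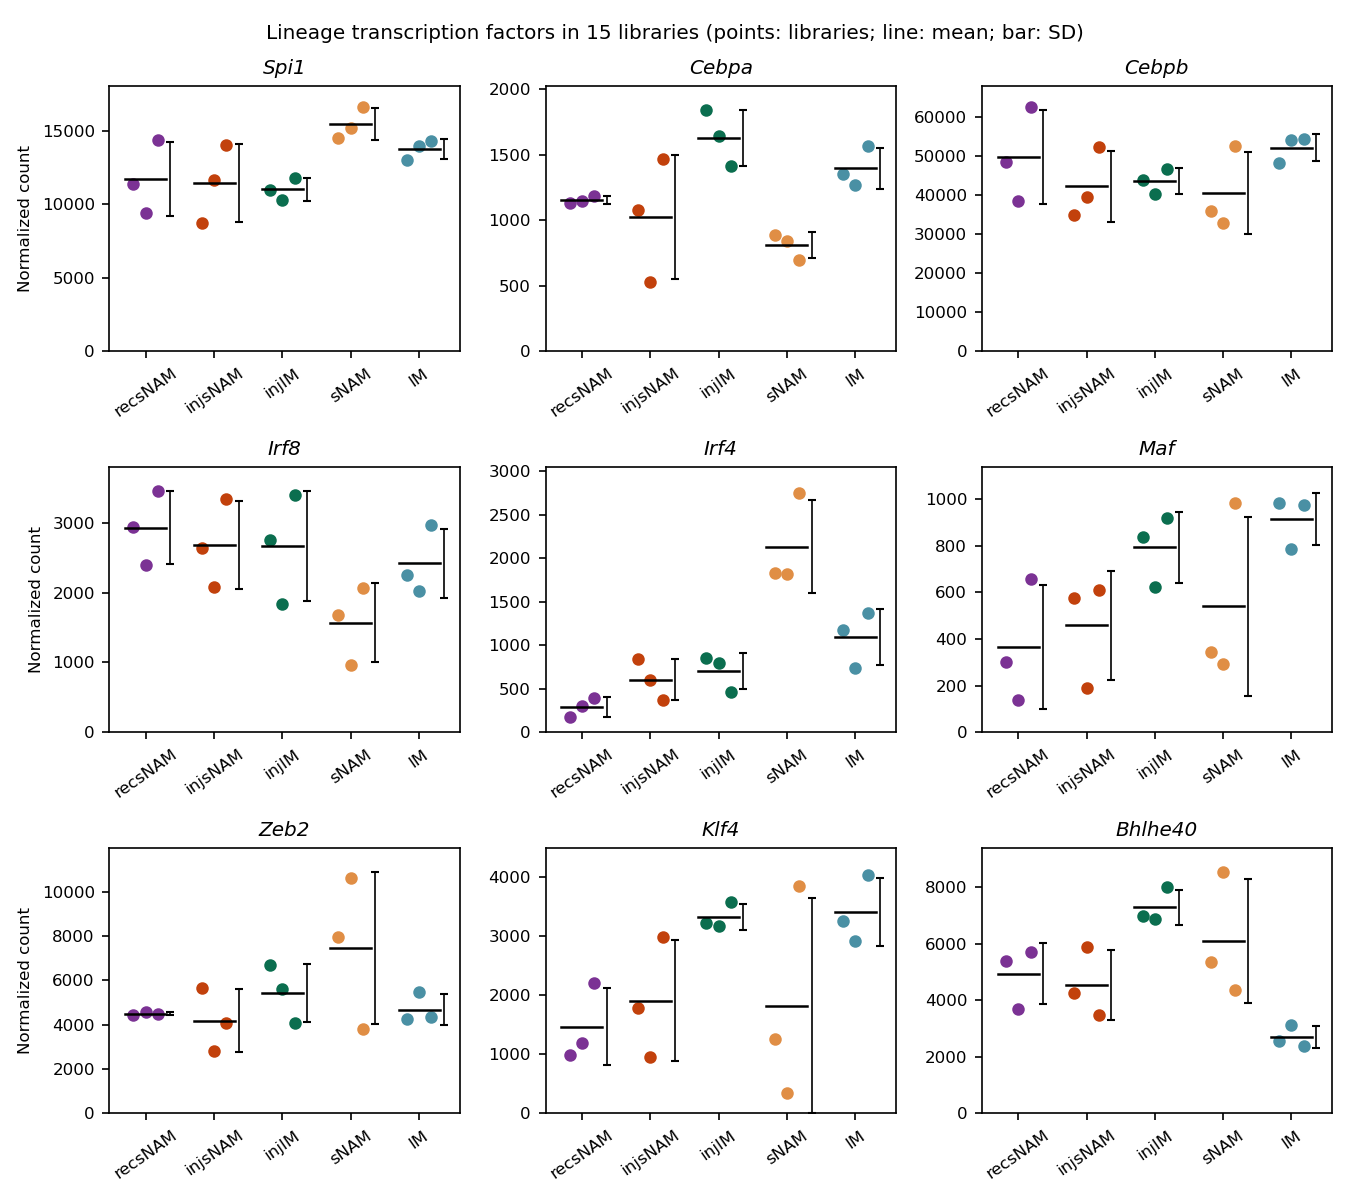
Normalized counts (y axis, linear from 0) of the 9 factors in recsNAM, injsNAM, injIM, sNAM and IM (x axis); each point is a library, the line is the group mean and the bar 1 SD (n = 3). Spi1 and Cebpb stay within a 1.91-fold range, Irf4 is high in all 3 sNAM libraries, Bhlhe40 is low in all 3 IM libraries, and Klf4 ranges from 349 to 3860 within sNAM.

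Spi1 (chromosome 2, 91082374 to 91115759, GRCm38) was present at a high level in every group. It measured 11366, 9399 and 14389.9 normalized counts in recsNAM, 8713, 11626 and 14014 in injsNAM, 10957, 10288 and 11809.6 in injIM, 14495, 15230.3 and 16643 in sNAM, and 13014, 13979.7 and 14283 in IM. The sNAM libraries were all above the others, the IM libraries were all above the injIM libraries, and recsNAM and injsNAM overlapped both IM and injIM. In order of means sNAM was followed by IM, recsNAM, injsNAM and injIM, and after sNAM no group was separated from its neighbour in that order. No difference in Spi1 was called: the injIM against IM difference was -0.32 (SE 0.11, adjusted p = 0.0868).

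Cebpa (chromosome 7, 35119293 to 35121928) was the lower of the C/EBP pair. It measured 1128, 1147 and 1184 normalized counts in recsNAM, 1077, 529 and 1465 in injsNAM, 1837, 1642 and 1409.95 in injIM, 889, 838 and 698 in sNAM, and 1354, 1266 and 1564 in IM. All sNAM libraries were below all IM libraries, and all recsNAM libraries were below all injIM and IM libraries, with the tightest agreement of any Cebpa group (CV 2.49%). Neither separation was called, with -0.72 (SE 0.46, adjusted p = 0.496) for sNAM against IM and -0.46 (SE 0.18, adjusted p = 0.146) for recsNAM against injIM.

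Cebpb (chromosome 2, 167688915 to 167690432) was the most abundant member. It measured 48453, 38353 and 62459 normalized counts in recsNAM, 34823, 39568 and 52318 in injsNAM, 43791, 40167 and 46774 in injIM, 35990.5, 32897 and 52519 in sNAM, and 48129.7, 53977 and 54416 in IM. The injIM libraries lay below the IM libraries, while every other pair of groups compared here overlapped. The injIM against IM difference was -0.26 (SE 0.12, adjusted p = 0.201). Its exons overlap 312 bases of Tmem189 on the other strand, and since no source used here gives the strand setting of the counting, Cebpb carries that uncertainty; Tmem189 itself measured 6698 to 11578.

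Irf8 (chromosome 8, 120736358 to 120756694) had its lowest mean in sNAM. It measured 2936, 2402 and 3457 normalized counts in recsNAM, 2639, 2077 and 3335 in injsNAM, 2757, 1838 and 3402 in injIM, 1683, 961 and 2069 in sNAM, and 2257, 2029 and 2966 in IM. All injsNAM libraries exceeded all sNAM libraries, by a narrow margin, and the recsNAM, injsNAM, injIM and IM ranges overlapped one another. No difference in Irf8 was called, the recsNAM against injIM value being 0.16 with an interval of -0.31 to 0.62.

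Irf4 (chromosome 13, 30749233 to 30766981) showed the widest span of the set. Its group means ran in the opposite order to those of Irf8, whose neighbouring groups all overlapped. It measured 173, 301 and 394 normalized counts in recsNAM, 844, 603 and 367 in injsNAM, 848, 791 and 462 in injIM, 1833, 1822 and 2748 in sNAM, and 1172, 734 and 1365 in IM. The sNAM libraries were above all others, and the recsNAM libraries were below all injIM, sNAM and IM libraries. Means ran from sNAM through IM, injIM and injsNAM to recsNAM, and after sNAM each group overlapped the next.

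Maf (chromosome 8, 115703253 to 115706894) was the lowest member per length and varied strongly within the nerve-associated gates. It measured 302, 138 and 657 normalized counts in recsNAM, 575, 190.2 and 612 in injsNAM, 839, 623 and 917 in injIM, 343, 291 and 984 in sNAM, and 985, 788 and 976 in IM. The interstitial libraries of both ears lay between 623 and 985, while sNAM, injsNAM and recsNAM each held libraries below that range and at least 1 library within reach of it, at 984, 612 and 657 at the highest. Neighbouring groups in the order IM, injIM, sNAM, injsNAM and recsNAM all overlapped.

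Zeb2 (chromosome 2, 44983512 to 45117442) averaged 4184 to 5446 normalized counts outside sNAM and 7467 in sNAM. It measured 4438, 4562 and 4500.3 in recsNAM, 5651, 2824 and 4078 in injsNAM, 6677, 5591 and 4070.4 in injIM, 7959, 10628 and 3813 in sNAM, and 4240.4, 5473 and 4343 in IM. The recsNAM libraries agreed within a CV of 1.38%, the sNAM libraries spread over 2.79-fold, and all neighbouring groups overlapped. No Zeb2 difference was called in any comparison. Its exons overlap 653 bases of the antisense gene Zeb2os, which measured 14.6 to 167.

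Klf4 (chromosome 4, 55527137 to 55532475) was steady in interstitial cells and scattered in the nerve-associated gates. It measured 989.6, 1195 and 2209 normalized counts in recsNAM, 1778, 952 and 2993 in injsNAM, 3228, 3172 and 3578 in injIM, 1260.2, 349 and 3859.6 in sNAM, and 3262, 2921 and 4041 in IM. All recsNAM and injsNAM libraries lay below all injIM libraries, while sNAM reached from below every other library to above all but 1. The CV was 99.9% in sNAM and 53.8% in injsNAM, against 6.61% in injIM.

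Bhlhe40 (chromosome 6, 108660629 to 108666925) separated unpunched interstitial macrophages from the other 4 groups. It measured 5395, 3694 and 5693 normalized counts in recsNAM, 4255, 5873 and 3467 in injsNAM, 6972, 6866 and 8011 in injIM, 5364, 8541 and 4346 in sNAM, and 2569, 3130.1 and 2368 in IM. Every library of the other groups was above every IM library, and the injIM libraries were above all recsNAM and injsNAM libraries. Within sNAM the values spread over 1.97-fold and overlapped those of injIM, recsNAM and injsNAM.

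The comparison of injIM with IM addresses what the punch changed in interstitial macrophages, and Bhlhe40 was the 1 member called. It averaged 7283 ± 632 in injIM and 2689 ± 395 in IM (SD), 2.71-fold higher, with a log2 difference of 1.41 (SE 0.13, interval 1.13 to 1.69, adjusted p = 1.95e-06), higher in 3 of 3 libraries. In this comparison 8.18% of all tested genes were called and 4.15% were called higher, so 1 of 9 is near the background share. The other 8 members gave differences between -0.57 for Irf4 (adjusted p = 0.142) and 0.21 for Cebpa (adjusted p = 0.477). The group ranges of 3 members did not overlap, Bhlhe40 higher and Spi1 and Cebpb lower, against 24.9% of all tested genes. Mast cell markers summed to 249 to 268 CPM in injIM and 545 to 711 CPM in IM, with none of the 9 at 0 in either, and dendritic cell markers to 105 to 264 CPM in injIM and 267 to 628 CPM in IM, with Btla at 0 in IM. Langerhans cell markers summed to 12.2 to 21.0 CPM in injIM and 25.9 to 60.8 CPM in IM. Their part in these differences was not tested. The Bhlhe40 call was lost with edgeR's quasi-likelihood test on recovered reads (log2 difference 1.40, adjusted p = 0.066) and kept in each of the other alternatives.

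The comparison of recsNAM with injIM sets recruited nerve-associated cells against interstitial cells of the same punched ears, and 4 of the 9 factors were called, all lower in recsNAM. Over all tested genes 7.53% were called and 4.34% were called lower. Klf4 averaged 1465 ± 653 in recsNAM and 3326 ± 220 in injIM (SD), a log2 difference of -1.21 (SE 0.25, adjusted p = 0.00389). Irf4 averaged 289 ± 111 in recsNAM and 701 ± 208 in injIM, a log2 difference of -1.05 (SE 0.28, adjusted p = 0.0236). Both were lower in 3 of 3 libraries without overlap.

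Maf averaged 366 ± 266 in recsNAM and 793 ± 152 in injIM, a log2 difference of -1.08 (SE 0.29, adjusted p = 0.0269), and its ranges overlapped, recsNAM replicate 3 at 657 lying above injIM replicate 2 at 623. Bhlhe40 averaged 4927 ± 1078 in recsNAM and 7283 ± 632 in injIM, a log2 difference of -0.57 (SE 0.16, adjusted p = 0.0371), without overlap. The other 5 factors were not called: Spi1 differed by 0.07, Cebpb by 0.16, Irf8 by 0.16, Zeb2 by -0.24 and Cebpa by -0.46 on the log2 scale, all 3 recsNAM libraries lying below all injIM libraries for Cebpa. The group ranges of Cebpa, Irf4, Klf4 and Bhlhe40 did not overlap, all lower in recsNAM, 4 of 9 against 23.9% of all tested genes in either direction and 12.5% lower. In these bulk samples, fewer cells expressing a factor and less of its RNA per cell cannot be told apart.

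Dendritic cell markers summed to 346 to 520 CPM in recsNAM and 105 to 264 CPM in injIM, mostly from Ccr7 in recsNAM (69.8% of the sum) and Cd209a in injIM (74.0%), with Btla at 0 in recsNAM. Langerhans cell markers summed to 34.6 to 44.5 CPM in recsNAM and 12.2 to 21.0 CPM in injIM, and fibroblast markers to 44.3 to 263 CPM in recsNAM and 275 to 1046 CPM in injIM, with none at 0. T and NK cell markers summed to 11.9 to 36.8 CPM in recsNAM and 6.03 to 9.31 CPM in injIM, with Cd2 at 0 in both, and Schwann cell markers to 0 to 0.427 CPM in recsNAM, with Sox10 at 0, and 0.434 to 2.01 CPM in injIM. The part of these cells in the 4 differences was not tested. The 4 calls were lost under several alternatives: with 1 spread for all groups the adjusted p was 0.558 to 0.97, with edgeR on recovered reads 0.677 to 1 and with DESeq2 0.149 to 0.894, and testing all genes without the filter gave 0.118 to 0.198. Without recsNAM replicate 1 all 4 were lost (Klf4 0.0832, Irf4 0.286, Maf 0.15 and Bhlhe40 0.113), and Irf4, Maf and Bhlhe40 were also lost without recsNAM replicate 2 (0.0528, 0.204 and 0.234) or injIM replicate 1 (0.135, 0.118 and 0.0989). Irf4 and Bhlhe40 were lost without injIM replicate 2 (0.0815 and 0.0572), and Bhlhe40 without injIM replicate 3 (0.0538), all directions being kept.

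**Figure D2:**
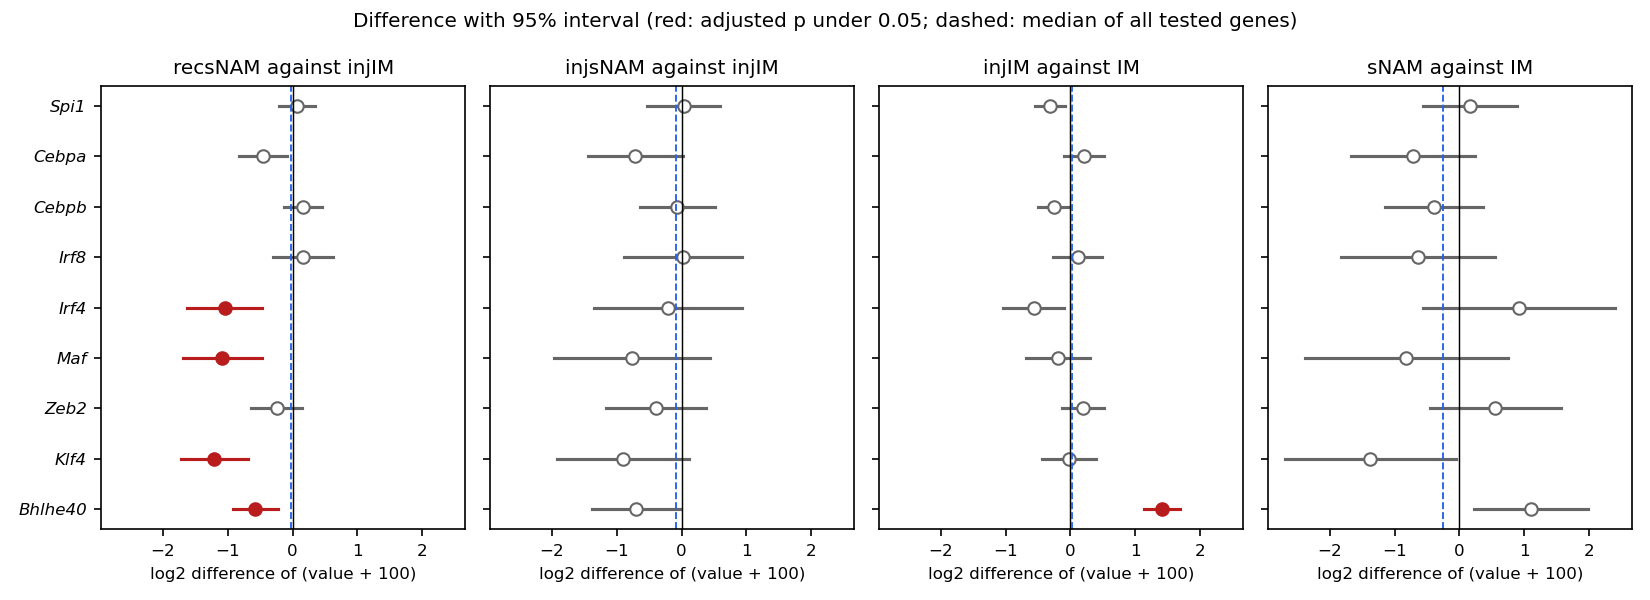
Log2 differences of (value + 100) with 95% intervals (x axis) for the 9 factors (rows) in 4 comparisons, each named above its panel; red points were called at an adjusted p under 0.05 and the dashed line is the median of all tested genes. Irf4, Maf, Klf4 and Bhlhe40 lie below 0 in recsNAM against injIM, Bhlhe40 lies at 1.41 in injIM against IM, and the intervals against or within the sNAM and injsNAM groups are wide.

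The comparison of sNAM with IM sets nerve-associated against interstitial cells in unpunched skin. None of the 9 factors was called by limma, where 1.05% of all tested genes were; 2 members, Klf4 and Bhlhe40, had an unadjusted p under 0.05, and edgeR and DESeq2 each called 1, Bhlhe40. Bhlhe40 averaged 6084 ± 2188 in sNAM and 2689 ± 395 in IM, a log2 difference of 1.10 (SE 0.42, adjusted p = 0.217), with an adjusted p of 0.033 by edgeR, 0.000904 by DESeq2 and 0.0212 by limma with 1 spread for all groups. Irf4 averaged 2134 ± 531 in sNAM and 1090.5 ± 323 in IM, a log2 difference of 0.92 (SE 0.71, adjusted p = 0.584). Klf4 differed by -1.37 with an interval of -2.69 to -0.05 (adjusted p = 0.313).

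The ranges of sNAM and IM did not overlap for Spi1, Irf4 and Bhlhe40, higher in sNAM, and for Cebpa, lower in sNAM, 4 of 9 against 27.9% of all tested genes. Depth and detected genes moved with this comparison, and so did several marker lists. Dendritic cell markers summed to 1819 to 2768 CPM in sNAM, with none of 11 at 0, and 267 to 628 CPM in IM, with Btla at 0, 71.4% of the sNAM sum coming from Ccr7. T and NK cell markers summed to 33.0 to 329 CPM in sNAM and 6.01 to 10.3 CPM in IM, with Cd2 at 0 in both, fibroblast markers to 6.28 to 52.5 CPM in sNAM, with Lum at 0, and 253 to 438 CPM in IM, and mast cell markers to 0.161 to 1874 CPM in sNAM and 545 to 711 CPM in IM. Langerhans cell markers summed to 84.6 to 464 CPM in sNAM and 25.9 to 60.8 CPM in IM, and macrophage markers to 10606 to 12716 CPM in sNAM and 15354 to 16998 CPM in IM. Their part in the values of Irf4 and the other factors was not tested.

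In the nerve-associated gate, the comparison of injsNAM with sNAM asks what the punch changed, and limma called none of the 9 factors and 0% of all tested genes. At an unadjusted p under 0.05 stood 0 of the 9 members and 586 of all tested genes, while edgeR called 0 members and 147 genes and DESeq2 1 member and 725 genes. That member was Irf4, which averaged 605 ± 238 in injsNAM and 2134 ± 531 in sNAM, 3.53-fold lower, with a log2 difference of -1.70 (SE 0.87, adjusted p = 0.756 by limma, 0.00129 by DESeq2 and 0.0221 by limma with 1 spread for all groups). All 3 injsNAM libraries were below all sNAM libraries for Irf4 and Spi1 and above them for Irf8, 3 of 9 against 12% of all tested genes. The Irf8 difference was 0.77 (SE 0.69, adjusted p = 0.914) and the Spi1 difference -0.45 (SE 0.42, adjusted p = 0.919). Dendritic cell markers summed to 474 to 946 CPM in injsNAM, with Clec9a and Kmo at 0, and 1819 to 2768 CPM in sNAM, with none at 0. Macrophage markers summed to 13402 to 16892 CPM in injsNAM and 10606 to 12716 CPM in sNAM. Their part was not tested.

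Whether the punch acted differently in the gates was tested as an interaction, the injsNAM against sNAM difference minus the injIM against IM difference. Limma called none of the 9 members and 0% of all tested genes; at an unadjusted p under 0.05 stood 1 member and 444 genes, edgeR called 0 members and 27 genes, and DESeq2 1 member and 228 genes. The member in each case was Bhlhe40, with -1.80 (SE 0.53, adjusted p = 0.742 by limma and 0.000479 by DESeq2): its difference with the punch was -0.39 in the nerve-associated gate and 1.41 in interstitial cells. Sharing the punched ear, injsNAM against injIM gave no called member, against 0.485% of all tested genes called, with 1 member, Bhlhe40, at an unadjusted p under 0.05 and 0 called by edgeR or DESeq2. All 3 injsNAM libraries lay below all injIM libraries for Maf, Klf4 and Bhlhe40, 3 of 9 against 21% of all tested genes in either direction and 12% lower, with log2 differences of -0.77, -0.90 and -0.70 (adjusted p = 0.675, 0.494 and 0.404). Dendritic cell markers summed to 474 to 946 CPM in injsNAM and 105 to 264 CPM in injIM, T and NK cell markers to 49.8 to 406 CPM in injsNAM and 6.03 to 9.31 CPM in injIM, and Langerhans cell markers to 34.1 to 135 CPM in injsNAM and 12.2 to 21.0 CPM in injIM. Fibroblast markers summed to 0.355 to 38.8 CPM in injsNAM, with Pdgfra at 0, and 275 to 1046 CPM in injIM, and mast cell markers to 15.4 to 176 CPM in injsNAM, with Fcer1a at 0, and 249 to 268 CPM in injIM. Schwann cell markers were at most 0.0532 CPM in injsNAM and 0.434 to 2.01 CPM in injIM, and endothelial markers at most 0.717 CPM in injsNAM and 4.06 to 10.2 CPM in injIM. Their part was not tested. Set beside them, recsNAM against injIM gave -1.08, -1.21 and -0.57 for these factors, and both comparisons share the injIM libraries.

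Recruited and resident nerve-associated cells of the punched ear, recsNAM against injsNAM, overlapped for all 9 factors, where 13.7% of all tested genes did not overlap. Limma called none of the 9 and 0% of all tested genes; 0 members and 619 genes had an unadjusted p under 0.05, edgeR called 0 members and 8 genes, and DESeq2 0 members and 154 genes. Irf4 gave the largest difference of the 9, -0.84 with an interval of -2.02 to 0.34 (adjusted p = 0.856), averaging 289 ± 111 in recsNAM and 605 ± 238 in injsNAM. The other 8 members lay between -0.32 for Maf and 0.25 for Cebpa. These intervals leave room for differences of the size called against injIM.

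Irf8 and Irf4 ran in opposite orders over the group means, and their ratio followed the order of Irf8. The ratio of their normalized counts within a library was 7.98 to 17.0 in recsNAM, 3.13 to 9.08 in injsNAM, 2.32 to 7.36 in injIM, 0.527 to 0.918 in sNAM and 1.93 to 2.76 in IM. On the log2 scale of (value + 100), which narrows the ratio where Irf4 is low, Irf8 over Irf4 was 3.48, 2.64 and 2.85 in recsNAM, 1.54, 1.63 and 2.88 in injsNAM, 1.59, 1.12 and 2.64 in injIM, -0.12, -0.86 and -0.39 in sNAM, and 0.89, 1.35 and 1.07 in IM. Irf4 exceeded Irf8 in all 3 sNAM libraries and in none of the other 12. Group means were 2.99 ± 0.43 in recsNAM, 2.01 ± 0.75 in injsNAM, 1.78 ± 0.78 in injIM, -0.46 ± 0.37 in sNAM and 1.10 ± 0.23 in IM (SD). The recsNAM libraries lay above all IM and sNAM libraries and overlapped injsNAM; the lowest recsNAM library, at 2.641, and the highest injIM library, at 2.638, were nearly equal. These ratios are descriptions with no test, and gene length keeps 0 from meaning equal numbers of molecules.

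**Figure D3:**
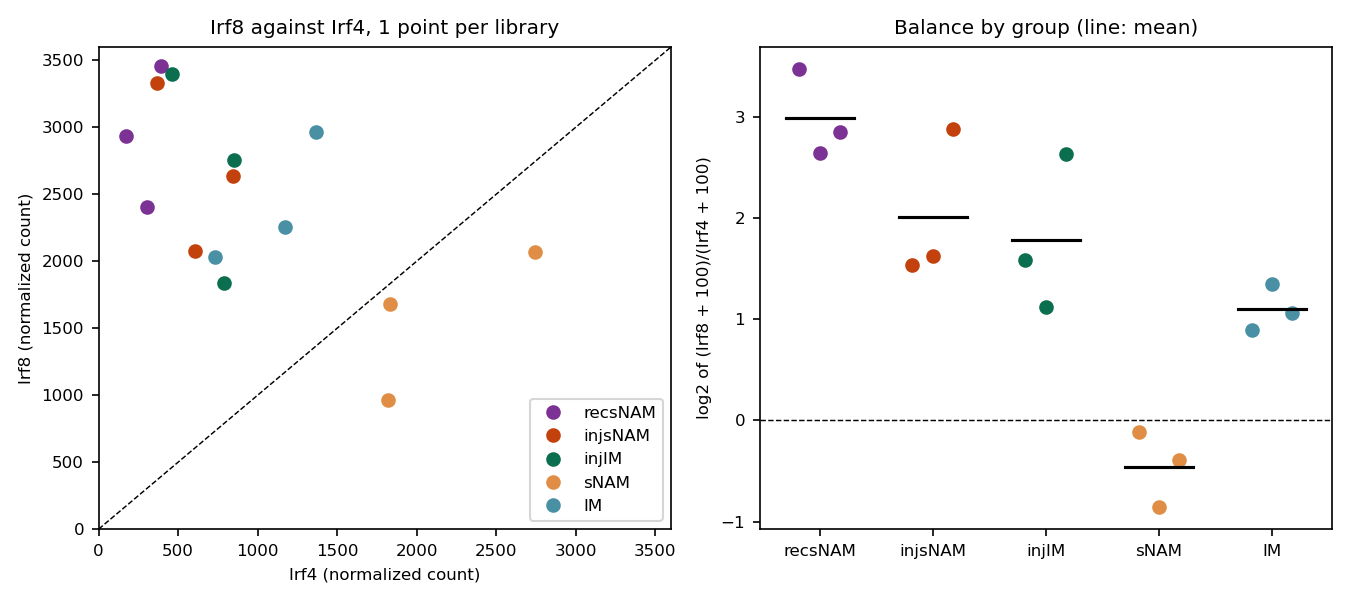
Left, normalized counts of Irf8 (y axis) against Irf4 (x axis), 1 point per library coloured by group, the dashed line marking equal values; right, log2 of (Irf8 + 100)/(Irf4 + 100) per library by group, the line marking the group mean. The 3 sNAM libraries lie under the dashed line and below 0 (-0.12 to -0.86), and the 3 recsNAM libraries lie at 2.64 to 3.48.

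The ratio of Cebpb to Cebpa moved less. On the same scale it averaged 5.29 ± 0.33 in recsNAM, 5.31 ± 0.58 in injsNAM, 4.66 ± 0.25 in injIM, 5.46 ± 0.51 in sNAM and 5.13 ± 0.15 in IM (SD). All 3 injIM libraries, at 4.50 to 4.96, lay below all 3 IM libraries, at 5.03 to 5.31, and the recsNAM, injsNAM, sNAM and IM ranges overlapped one another. Cebpa alone averaged 1630 ± 214 in injIM and 1395 ± 153 in IM, and Cebpb 43577 ± 3309 in injIM and 52174 ± 3510 in IM.

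Among the 9, Maf and Klf4 had the most similar pattern over the 15 libraries (Pearson r = 0.846 on the log2 scale), and Irf8 with Zeb2 (r = -0.621) and with Irf4 (r = -0.601) the most opposed. Over all tested genes, the closest to Klf4 were Sord (r = 0.959), a polyol enzyme, and Folr2 (r = 0.932), a folate receptor carried by resident macrophages. The closest to Irf4 were Ppan (r = 0.918) and Gnl3 (r = 0.916), which act in ribosome assembly and nucleolar function, and to Irf8 Pkig (r = 0.905) and Gramd1b (r = 0.899). Spi1 was closest to Cst3 (r = 0.913), the secreted protease inhibitor cystatin C, and to Cdkn1a (r = 0.903), the cell cycle inhibitor p21. Cebpa was closest to Hk1 (r = 0.898) and Vps41 (r = 0.890), Cebpb to Ptms (r = 0.907) and Csrp2 (r = 0.885), Maf to Rab7b (r = 0.879) and Rgl1 (r = 0.876), and Zeb2 to Adam22 (r = 0.887) and St6gal1 (r = 0.879). Bhlhe40 had no neighbour this close, with Plxna1 and Acp5, the phosphatase TRAP, at r = 0.743 and 0.742. The 15 points share groups, animals and a depth gap between groups, so these are descriptions.

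Relatives and partners of the 9 factors formed a list of 71 genes, of which 61 were tested. The list was chosen with earlier results of these data known, so the shares called here and below are descriptions and no test. In injIM against IM, 15 were called, 4 higher and 11 lower in injIM, against 8.18% of all genes, with a median of -0.17 against 0.03 over all genes. Spic, the PU.1 relative of iron-recycling macrophages, measured 4438 ± 440 in injIM and 2764 ± 339 in IM (log2 difference 0.67, adjusted p = 0.00278). Irf5, an inflammatory relative of Irf4 and Irf8, measured 8285 ± 512 in injIM and 11717.5 ± 421 in IM (-0.50, adjusted p = 0.00152). Etv3, an ETS repressor, measured 6009 ± 764 in injIM and 10314 ± 340 in IM (-0.78, adjusted p = 0.00016).

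Also higher in injIM were Id3, Hif1a and Mxd1, and lower were Fli1, Cebpd, Atf3, Klf7, Myc, Stat3, Zbtb46, Mef2c and Nfil3. In recsNAM against injIM, 12 of the 61 were called, 4 higher and 8 lower in recsNAM, against 7.53% of all genes, with a median of -0.03 against -0.02. Higher were Elk3, Etv6, Id3 and Nfil3, and lower were Mafk, Cebpd, Atf3, Atf4, Klf2, Klf9, Myc and Mef2a. Alongside Klf4, its relatives Klf2 measured 248 ± 88.6 in recsNAM and 829 ± 110 in injIM (-1.45, adjusted p = 0.00145) and Klf9 462 ± 75.5 in recsNAM and 1360.4 ± 199 in injIM (-1.38, adjusted p = 0.00026), 2 of 7 tested KLF relatives. Limma called 0 of the 61 in sNAM against IM, injsNAM against sNAM, injsNAM against injIM, recsNAM against injsNAM and the interaction; in that order of comparisons, 7, 2, 6, 3 and 1 had an unadjusted p under 0.05, edgeR called 2, 2, 0, 0 and 0, and DESeq2 called 6, 9, 5, 2 and 1.

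Genes known to depend on the 9 factors, 37 in all with 34 tested, included 13 calls in injIM against IM, 3 higher and 10 lower in injIM, where 8.18% of all tested genes were called. These genes were chosen with earlier results of these data known, so the shares called here and below are descriptions and no test. In recsNAM against injIM 12 were called, 6 higher and 6 lower in recsNAM, Maf itself being 1 of the 6 lower, where 7.53% of all tested genes were called. Their median difference was -0.12 in injIM against IM, with 0.03 over all genes, and 0.22 in recsNAM against injIM, with -0.02 over all genes. In sNAM against IM 2 of the 34, Ccr7 and Cd74, were called, both higher in sNAM, against 1.05% of all tested genes. Neither call held throughout: that of Cd74 (log2 difference 2.53, adjusted p = 0.0376) was lost with a pseudocount of 10 (adjusted p = 0.124) and without sNAM replicate 1 or 3 or injsNAM replicate 2 or 3 (up to 0.272). In injsNAM against injIM 1, Ccr7, was called, higher in injsNAM, against 0.485% of all tested genes, and it was lost without injsNAM replicate 1 (adjusted p = 0.0587). Limma called 0 in injsNAM against sNAM, recsNAM against injsNAM and the interaction; in that order of comparisons, 2, 2 and 1 had an unadjusted p under 0.05, edgeR called 1, 0 and 0, and DESeq2 called 5, 3 and 1. Of 7 genes tied to MAF, 6 were lower in injIM than in IM (C1qa, C1qc, Il10, Lyve1, Mrc1 and Cd163; background 8.18% called) and 3 lower in recsNAM than in injIM (Il10, Mrc1 and Cd163; background 7.53%). Cd163, the haemoglobin scavenger receptor, measured 1557 ± 420 in recsNAM and 9054 ± 3132 in injIM (-2.43, adjusted p = 7.79e-06). Il10, which MAF induces and BHLHE40 represses, measured 1397 ± 350 in recsNAM and 2961 ± 712 in injIM (-1.03, adjusted p = 0.00767), and 2961 ± 712 in injIM and 6394 ± 1714 in IM (-1.08, adjusted p = 0.000895). The recsNAM call of Il10 was lost without injIM replicate 1 or recsNAM replicate 1, with an adjusted p of up to 0.0945. Of the 6 calls in injIM against IM, those of C1qc and Il10 held in each leave-one-out fit. Those of C1qa, Lyve1, Mrc1 and Cd163 did not (adjusted p up to 0.134, 0.187, 0.106 and 0.105). None of the 6 was kept with 1 spread for all groups or with edgeR, and DESeq2 called Il10 alone (0.019). The complement genes C1qa and C1qc, called lower in injIM, were not called in recsNAM against injIM. There C1qa, C1qb and C1qc lay above 0, at 0.25, 0.43 and 0.14 (adjusted p = 0.365, 0.0609 and 0.612), while Maf was called lower. Lyve1 lay at -1.42 there and was not called (adjusted p = 0.108).

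**Figure D4:**
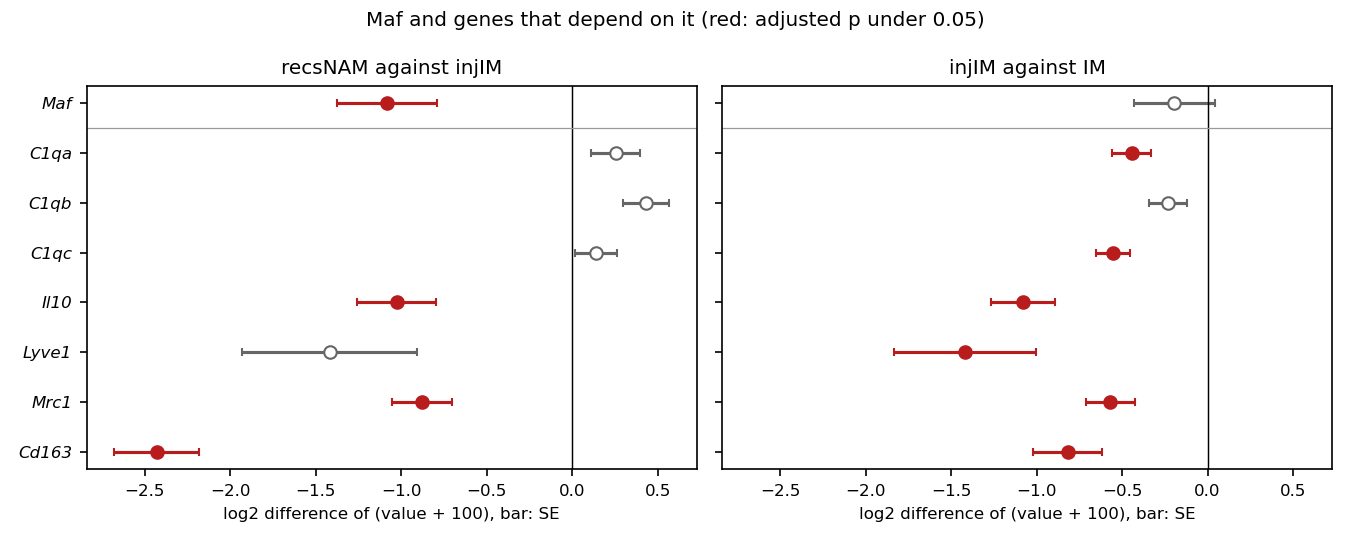
Log2 differences of (value + 100) with SE bars (x axis) for Maf and 7 genes that depend on it (rows), in recsNAM against injIM (left) and injIM against IM (right); red points were called at an adjusted p under 0.05. Maf is called lower in recsNAM (-1.08) and not in injIM (-0.20 against IM), and Cd163, Mrc1 and Il10 lie below 0 in both panels. C1qa, C1qb and C1qc lie above 0 in the left panel and below 0 in the right panel.

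Of 6 tested genes tied to IRF8 and IRF4, 4 were higher in recsNAM than in injIM, where 7.53% of all tested genes were called: Ciita, Ccr7, Cybb and Cd74. The calls of Ciita (adjusted p = 0.0429) and Cybb (0.0381) were lost in most leave-one-out fits (up to 0.202 and 0.189). They were also lost with 1 spread for all groups, edgeR and DESeq2. Ccr7 and Cd74 held in each leave-one-out fit, and Cd74 was lost with 1 spread (0.0538) and edgeR (0.14). Ccr7, the lymph node homing receptor that also belongs to the dendritic cell markers, measured 4936 ± 1828 in recsNAM and 214 ± 120 in injIM (4.01, adjusted p = 6.09e-07). Ccr7 was also called lower in injIM than in IM (adjusted p = 0.0484), a call lost in 10 of the 15 leave-one-out fits (up to 0.295). In sNAM, where Irf4 was highest, Ccr7 measured 26807 ± 12512 against 452 ± 155 in IM (5.55, adjusted p = 0.00494), and that call was lost with a pseudocount of 10 and without sNAM replicate 1 or 3. Among PU.1 targets, Csf1r was called in no comparison, while Itgam and Ptprc were higher in injIM than in IM and Cd68 and Itgb2 lower in recsNAM than in injIM, 2 of 12 in each, against 8.18% and 7.53% of all tested genes in that order. C/EBP targets included Il1b, at 62101 ± 8687 in recsNAM and 19151 ± 1567 in injIM (1.69, adjusted p = 2.91e-05), and at 19151 ± 1567 in injIM and 49160.2 ± 16437 in IM (-1.31, adjusted p = 2.72e-05). Arg1, tied to KLF4 and C/EBP beta, measured 360.1 ± 189 in injIM and 50.5 ± 39.2 in IM (1.55, adjusted p = 0.00128), while Klf4 and Cebpb were not called there. Of 3 genes tied to KLF4, 1 was called higher and 2 lower in injIM than in IM (background 8.18% called). In recsNAM against injIM, where Klf4 was called lower, 1 of the 3 was called higher and 1 lower (background 7.53%). Of 5 tested C/EBP targets, 1 was called higher and 2 lower in injIM than in IM. None of the 2 tested genes tied to ZEB2 was called in these comparisons.

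Calls among these related and dependent genes were less firm than the directions. Counting both lists without the 9 factors, 10 of 28 calls in injIM against IM and 12 of 23 in recsNAM against injIM held in each leave-one-out fit, edgeR kept 0 and 3 of them and DESeq2 4 and 9. No alternative reversed a direction.

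Within each group, the median CV of the 9 factors was below that of all tested genes. It was 21.9% in recsNAM, with 23.3% over all tested genes, and 33.8% in injsNAM, with 50.4% over all. It was 13.1% in injIM, with 17.0% over all, 35.8% in sNAM, with 76.7% over all, and 14.6% in IM, with 16.4% over all. Most of the 9 are abundant, and no comparison at matched abundance was made. The highest CV of a member was 72.6% for Maf in recsNAM, 53.8% for Klf4 in injsNAM, 29.7% for Irf4 in injIM, 99.9% for Klf4 in sNAM and 29.6% for Irf4 in IM.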

How the data were processed

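Libraries were made from 250 pg of RNA by SMARTer cDNA synthesis, 13 PCR cycles and Nextera XT tagmentation, per the labels' protocols. The submitters' processing notes name STAR 2.7.2b, DESeq2 1.24.0, R 3.6.1, cutadapt and bcl2fastq 2.18, with mm10 (GRCm38) as the build; read counter, annotation and strand setting were not given in the sources used here. Each deposited value is a signal, a gene's reads after the authors scaled the library by a size factor. Divided by a library's smallest value, 100% of its values came within 0.01 of a whole number, so reads could be recovered. Reads are PCR-amplified without molecular identifiers. No 2 libraries of a group agreed within sampling noise (lowest chi-square per degree of freedom 32.2).

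The test was limma 3.58.1 (R 4.3.3) with trend and robust moderation on log2(value + 100), over 8656 genes with a mean of at least 100. It had 1 mean and 1 array weight per group (recsNAM 1.67, injsNAM 0.311, injIM 3.21, sNAM 0.175, IM 3.43) and Benjamini-Hochberg adjustment within each comparison. It was also run on simulated independent libraries with 1 spread per group. That run cannot speak to variation shared between libraries. The log2(value + 100) scale understates the change of low genes. Fold values are ratios of group means. Libraries were treated as independent. Alternatives were a pseudocount of 10, no filter, 1 spread for all groups, edgeR 4.0.16 and DESeq2 1.42.0 on recovered reads, a replicate block, and leaving out each library. Recovered reads called 4 genes by edgeR and 64 by DESeq2 in injIM against IM, against 708 by limma. All table columns were assigned to a sample by name. The 9 factors, the lists of relatives, dependent genes and markers, and the tests were chosen with earlier results of these data known. Some genes of these lists are not reported here. All 9 factors are named throughout. Of each list, called genes are named, at most 4 in each direction by size of difference, and some called genes are left out. For each factor the 2 genes closest by Pearson correlation are named.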

Additional observations from a re-analysis of the deposited data

How the results depend on the processing

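The sNAM and injsNAM libraries, fewer in detected genes and poorer in replicate agreement, limit every comparison that holds them. Of the 9 factors' 63 differences under 21 alternatives each, 1242 of 1323 values kept their direction and side of the threshold, 30 lost a call, 9 gained one and 42 changed sign. Most differences were not called to begin with. Only the called ones, 1 in injIM against IM and 4 in recsNAM against injIM, could lose a call. Of the 30 losses, 1 was Bhlhe40 in injIM against IM and the rest fell on the 4 recsNAM calls. The sign changes touched 24 differences, none above 0.47 in size on the log2 scale or below an adjusted p of 0.602. With a pseudocount of 10 in place of 100, the mean log2 ratio of Irf8 to Irf4 was 3.36 in recsNAM and -0.48 in sNAM, against 2.99 and -0.46. The cause of the changes in counts was not tested.

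Genes called at an adjusted p under 0.05 numbered 91 for sNAM against IM, against 0 with a pseudocount of 10, 727 with 1 spread for all groups, 343 with edgeR, 922 with DESeq2 and 0 to 108 leaving out 1 library. For injIM against IM they numbered 708, against 315 without the filter, 18 with 1 spread, 4 with edgeR, 64 with DESeq2 and 399 to 827 leaving out 1 library. For injsNAM against sNAM they numbered 0, against 4, 363, 147 and 725 in the same order and 0 to 1 leaving out 1 library. For injsNAM against injIM they numbered 42, against 102 without the filter, 69 with 1 spread, 36 with edgeR, 314 with DESeq2 and 2 to 75 leaving out 1 library. For recsNAM against injIM they numbered 652, against 362, 22, 9 and 121 in that order and 272 to 898 leaving out 1 library. For recsNAM against injsNAM they numbered 0, against 12, 2, 8 and 154, and 0 to 39 leaving out 1 library, the highest without injsNAM replicate 2. For the interaction they numbered 0, against 6, 4, 27 and 228.

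The labels do not say whether replicate numbers pair the libraries. Deviations of same-numbered libraries correlated at -0.021 to 0.388 over 30 pairs, 9 of them over 0.1, with a median of 0.065. The median was -0.0365 for pairs of other numbers, and 12 of 15 libraries were closest to one of their own number. Replicate numbers thus carry some shared variation, whose source was not tested. With the replicate number as a block, genes called numbered 928 for injIM against IM, 70 for injsNAM against injIM and 1211 for recsNAM against injIM. Without it they numbered 708, 42 and 652 in that order. The 4 recsNAM calls were kept and Spi1 was called in injIM against IM (-0.32, adjusted p = 0.0275). Spi1 was also called there without injIM replicate 3 (0.0371), and Irf4 without IM replicate 2 (-0.81, adjusted p = 0.0191).

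The following log2 differences changed sign, with their range over leaving out each library. In injIM against IM these were Irf8 (-0.08 to 0.35) and Klf4 (-0.12 to 0.10). In injsNAM against sNAM they were Cebpa (-0.072 to 0.59), Cebpb (-0.094 to 0.27), Maf (-0.42 to 0.32) and Klf4 (-0.34 to 1.23). In injsNAM against injIM they were Spi1 (-0.13 to 0.21), Cebpb (-0.23 to 0.065), Irf8 (-0.21 to 0.22, and -0.012 with edgeR) and Irf4 (-0.45 to 0.062). In recsNAM against injIM they were Spi1 (-0.089 to 0.22), Cebpb (-0.013 to 0.34) and Irf8 (-0.076 to 0.35). In recsNAM against injsNAM they were Spi1 (-0.14 to 0.20), Cebpa (-0.12 to 0.54), Irf8 (-0.031 to 0.30), Maf (-0.74 to 0.09), Zeb2 (-0.092 to 0.40), Klf4 (-0.70 to 0.077) and Bhlhe40 (-0.045 to 0.33). In the interaction they were Spi1 (-0.29 to 0.047), Cebpa (-0.28 to 0.38), Maf (-0.22 to 0.51, -0.011 with edgeR and -0.034 with DESeq2) and Klf4 (-0.32 to 1.25).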

Other observations

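Spi1, Cebpb, Irf8 and Klf4 were each highest in the library numbered replicate 3 in all 5 groups, 4 of the 9 factors (44.4%). Over the 8656 tested genes, 202 (2.33%) were highest in replicate 3 in all 5 groups, 117 (1.35%) in replicate 2 and 43 (0.497%) in replicate 1. By group, 8 of the 9 factors were highest in replicate 3 in recsNAM, 6 in injsNAM, 6 in injIM, 6 in sNAM and 6 in IM. Zeb2 was highest in replicate 3 in none of the groups. The pattern was noticed in these values and was not tested, and the labels do not say whether a replicate number marks an animal, a day or a batch.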
